A study of Mus musculus with 8 samples.

Results

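Glycolysis and hypoxia response genes are described here as 41 mouse genes: the enzymes that carry glucose to lactate, their transporters and regulators, and genes induced by low oxygen. A gene was a member if it stood on that list and a probe carried its symbol, and the probe with the highest mean over 8 arrays stood for it. Of the 41 members, 38 had a named probe among 19057 genes with one, and Hk2, Gpi1 and Eno1 had none under those names. A filter on low values, a deposited log2 level of 6 or more on at least 2 of 8 arrays, kept 29 members of 8308 genes, and 9 members with a probe fell under it.

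The arrays measured RNA of reprogrammed cells, of cells differentiated from bone marrow mesenchymal stem cells (MSCs), which are marrow stromal cells able to form fat, cartilage and bone, and of MSCs themselves, all from C57BL/6J mice. Reprogrammed adipocytes, chondrocytes and osteocytes (each titled p1) had 1 array each. Of the differentiated cells, adipocytes were titled d7, chondrocytes d28 and osteocytes d21, again with 1 array each, and undifferentiated MSCs had 2, titled p4 and d0. The labels give neither the meaning of d and p nor the agents used to differentiate or reprogram the cells. They do not name separate cultures or animals, so that a p-value here covers no more than the spread from array to array. Within the reprogrammed state and within the differentiated state each array is of another cell type. This spread therefore holds differences between cell types as well as any technical ones. Every reprogrammed array has a p title and every differentiated array a d title, and these states are joined only through 1 MSC array with each letter. Differences fitted with the title letter as a block are therefore printed too for the members named in the state comparisons.

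Glycolysis splits glucose into triose phosphates in a first stage that spends ATP, and a second stage regains it and ends in pyruvate, which lactate dehydrogenase turns to lactate or mitochondria oxidise. When oxygen is low, prolyl hydroxylases stop marking the alpha subunits of hypoxia-inducible factor (HIF) for destruction, and HIF binds a short DNA core in the promoters of many glycolytic genes and of genes for vessel growth, mitophagy and acid balance. Cartilage has no blood vessels, and its cells live at low oxygen and depend on glycolysis, and the marrow in which MSCs reside is itself poor in oxygen.

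The deposited values were already brought to one distribution: all 8 arrays had a median log2 level of 3.901 and 12610 of 45281 probes at a level of 6 or more. Probes listed at 0 numbered 6815 to 7652 on arrays with a p title and 4317 to 5204 on arrays with a d title. The adipocyte label was borne out by 6 of 8 adipocyte markers at the level on the differentiated adipocyte array, with Cidec at 13.89 and Plin1 at 8.72 among them, against 1 to 3 on the others. The differentiated chondrocyte array had 4 of 8 chondrocyte markers at the level, against 1 or 2 on the others. Col10a1 (7.51), Hapln1 (6.39) and Sox9 (10.73, beside 10.57 on MSC d0) were highest there. Col2a1, at 9.15, lay below every reprogrammed array (9.74 to 10.41), and aggrecan (Acan, 5.66), a defining marker, was under the level. The osteoblast markers Sp7 (12.64), Ibsp (11.70), Bglap (10.98) and Alpl (10.57) were the highest of 8 on the differentiated chondrocyte array. On the differentiated osteocyte array the osteocyte markers Dmp1 and Sost were at 2.61 and 1.31 and Ibsp at 5.30, all under the level. Alpl (5.33) and Phex (1.18) were under it there too, while Sp7 (8.58) and Bglap (6.46) were at it. Sp7 was lower there than on both MSC arrays (9.16 each), and Bglap was higher (MSC arrays 3.60 and 3.56). In such bulk samples fewer cells of a type and less RNA per cell cannot be told apart.

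No member passed the test between states. With limma over all 8 arrays, 0 of 29 members differed between reprogrammed and differentiated cells at a Benjamini-Hochberg adjusted p under 0.05, beside 0.65% of all genes. At an unadjusted p under 0.05, Pdk3 and Adm were higher (10.9% of all genes were) and Ddit4 lower (11.7%) in reprogrammed cells. Pdk3, a kinase that closes the pyruvate dehydrogenase gate, differed by a log2 of 1.04 ± 0.44 (SE, n = 3 each, limma adjusted p = 0.215), and Adm, the vessel-dilating peptide adrenomedullin, by 1.01 ± 0.42 (limma adjusted p = 0.204). Ddit4, a stress-induced brake on mTORC1, differed by -1.31 ± 0.40 (limma adjusted p = 0.125). With the title letter as a block these differences were 0.35 for Pdk3, 1.76 for Adm and -0.41 for Ddit4. The 3 reprogrammed arrays lay above the 3 differentiated arrays without overlap for 1 member, Hif1a, beside 13.7% of all genes, and below them for Ndrg1 and Ddit4, beside 16.2%.

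The median difference of the 29 members between reprogrammed and differentiated cells was a log2 of 0.14, beside -0.036 over all genes, and with the title letter as a block it was -0.45, beside -0.013. That block turned the sign of 9 of the 20 members with the widest range, among them Ldha, Pgk1, Pgam1, Aldoa and Pkm. Ldha, for example, differed by 1.18 ± 0.55 without the block (limma adjusted p = 0.249) and by -0.47 with it (limma adjusted p = 1.0). Stc2 was the only member called under any alternative, at -2.45 without the differentiated adipocyte array (limma adjusted p = 0.0488). That setting called 209 of all 8308 genes, beside 54 with every array.

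**Figure D1:**
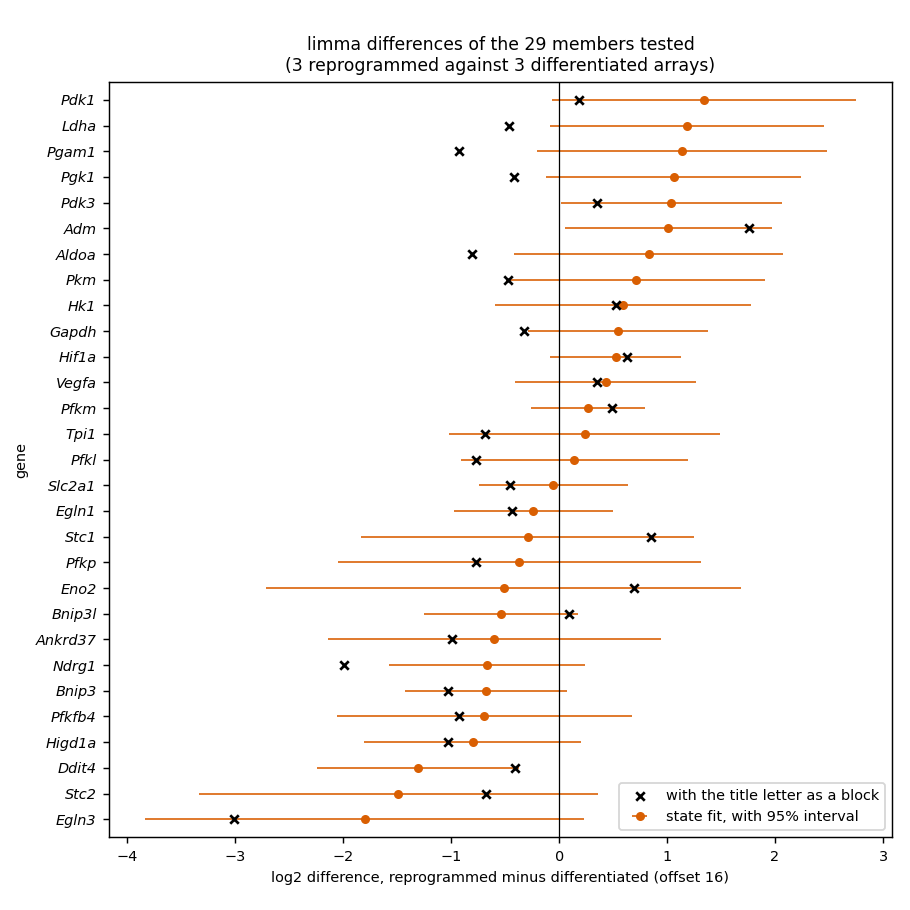
limma log2 difference (offset 16) of the 29 members between 3 reprogrammed and 3 differentiated arrays, with 95% intervals as orange lines, and the difference with the title letter as a block as black crosses. Only the intervals of Pdk3, Adm and Ddit4 lie clear of 0 before adjustment, and the crosses of Ldha, Pgam1, Pgk1 and Aldoa lie on the other side of 0 from their points.

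Between differentiated cells and MSCs no member passed the test either, with 0 of 29 called by limma beside 0.0602% of all genes. Unadjusted, Bnip3, Ddit4 and Higd1a were higher in differentiated cells (4.63% of all genes) and Adm lower (5.74%). Ddit4 differed by a log2 of 1.53 ± 0.45 (SE, n = 3 and 2, limma adjusted p = 0.352), and Adm by -1.49 ± 0.46 (limma adjusted p = 0.352). Egln3, a HIF prolyl hydroxylase, had the widest difference among members, 2.27 ± 0.98 (limma adjusted p = 0.483). With the title letter as a block, which leaves the comparison with MSC d0 alone, Ddit4 differed by 1.08, Adm by -1.86 and Egln3 by 2.87. Egln3 was under the level on MSC d0 (4.60) and on the differentiated osteocyte array (5.82). Neither of its differences is thus a measured size. The median difference of the members was 0.041, beside -0.0035 over all genes, and with the block 0.48, beside -0.015. Arrays did not overlap for 3 members higher in differentiated cells, Bnip3, Egln1 and Ddit4 (11.8% of all genes), and for 4 lower, Pfkm, Adm, Hif1a and Stc1 (12.3%). By their second probes, at the level on all 8 arrays, Egln1 and Pfkm did overlap. Egln1 had 6.13 on the differentiated osteocyte array by it, beside 6.21 and 6.16 on the MSC arrays. Pfkm had 8.02 to 8.55 on the differentiated arrays, beside 8.16 and 8.79 on the MSC arrays. Bnip3 reached the level, and so passed the filter, only through the differentiated adipocyte and chondrocyte arrays. On the differentiated osteocyte array (4.86) and the MSC arrays (4.68 and 4.04) it was under the level. Its order among those arrays is thus not a measured one, and its unadjusted p rests on such values.

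Between reprogrammed cells and MSCs limma called 0 of 29 members and 0.0% of all genes, and unadjusted it gave 0 members higher (0.12% of genes) and 1 lower, Stc1 (0.205%). Stc1, the secreted hormone stanniocalcin-1, differed by -1.75 ± 0.75 (SE, n = 3 and 2, limma adjusted p = 1.0), and by -1.18 with the title letter as a block. Arrays did not overlap for 3 members higher in reprogrammed cells, Hk1, Egln1 and Bnip3 (4.86% of all genes), and for Vegfa and Stc1, lower (8.73%). Bnip3 was under the level on all 5 of these arrays, so that its order there is not a measured one. By second probes at the level on all 8 arrays, Egln1 and Vegfa did overlap. Egln1 had 6.20 on the reprogrammed osteocyte array by it, beside 6.21 on MSC p4. Vegfa had 8.83 on the reprogrammed osteocyte array, beside 8.75 on MSC d0. The second probe of Hk1, partly under the level, overlapped as well. Members had a median log2 difference of 0.29 here, beside -0.037 over all genes, and of -0.0012 with the block, which is the comparison with MSC p4 alone. What follows describes single arrays, without a test, in which a gene is called higher or lower at a log2 difference of at least 1, 2-fold, from the other side, and from both arrays where the other side is MSCs. In such lists of levels, adipocytes come first, then chondrocytes, then osteocytes, and MSC p4 before MSC d0.

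**Figure D2:**
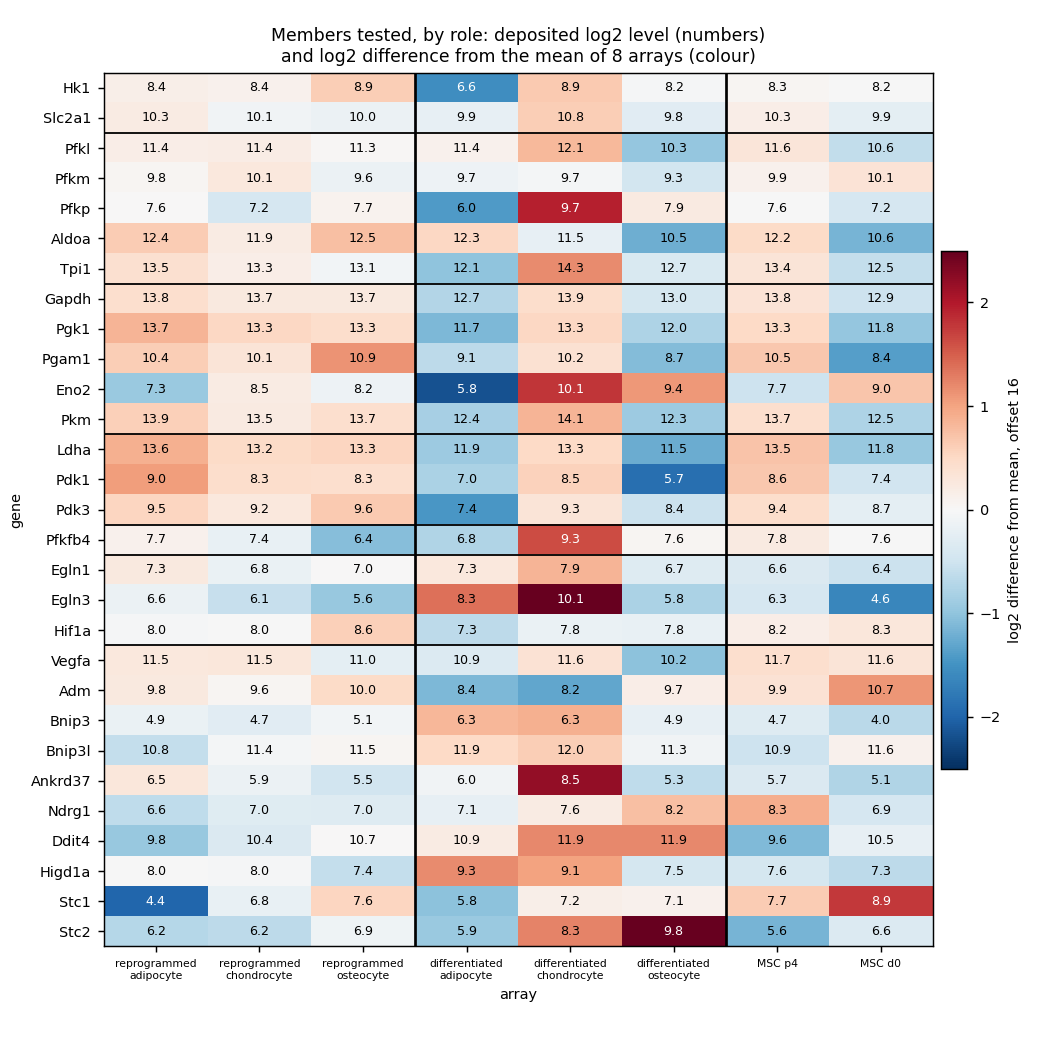
Deposited log2 level (numbers) of the 29 members tested on 8 arrays, with rows grouped by role and colour for the log2 difference (offset 16) from the gene's mean over arrays. Most rows of the second stage of glycolysis are blue on the differentiated adipocyte, differentiated osteocyte and MSC d0 arrays, and the differentiated chondrocyte array is the highest of 8 in 15 rows.

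The levels held 2 patterns, both picked out after the values had been seen. On the differentiated adipocyte, differentiated osteocyte and MSC d0 arrays 10 of 29 members (34.5%) lay below all 5 other arrays, beside 4.51% of all genes, and the opposite order held for 0 members, beside 6.22%. These 10 were Hk1, Tpi1, Gapdh, Pgk1, Pgam1, Pkm, Ldha, Pdk1, Pdk3 and Slc2a1, most of them enzymes of the second stage and of the pyruvate branch. On the differentiated chondrocyte array, 10 members (34.5%) were higher than on both MSC arrays, beside 5.2% of all genes, and only Adm was lower, beside 3.26%. Those 10 were Egln3, Ankrd37, Pfkp, Stc2, Ddit4, Eno2, Higd1a, Pfkfb4, Bnip3 and Egln1. The patterns had no member in common, but their definitions limit what they can share. MSC p4 is among the high arrays of the first, and the second asks for 2-fold over it. Hk1, Tpi1, Gapdh, Pkm and Slc2a1 of the first pattern were also highest on the differentiated chondrocyte array.

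Of the genes that bring in and trap glucose, hexokinase 1 (Hk1) had log2 levels of 8.41, 8.38 and 8.89 on the reprogrammed arrays, 6.56, 8.95 and 8.23 on the differentiated arrays, and 8.32 and 8.24 on the MSC arrays. The differentiated adipocyte array stood alone, 2.97-fold under the MSC mean, and the other arrays lay between 8.23 and 8.95. Slc2a1, which encodes the glucose transporter GLUT1, varied little, with log2 levels of 9.85 to 10.77, the lowest on the differentiated osteocyte and the highest on the differentiated chondrocyte array. Slc2a3, the transporter GLUT3, reached the level only on the differentiated chondrocyte array, at 6.98, and lay at 0.00 to 4.21 on the others, which makes it at least 1.78-fold higher there than on the MSC arrays.

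Among enzymes of the first stage, the phosphofructokinase genes went separate ways. Pfkp, the platelet-type subunit, had log2 levels of 7.63, 7.17 and 7.72 on the reprogrammed arrays, 6.02, 9.66 and 7.88 on the differentiated arrays, and 7.61 and 7.18 on the MSC arrays. It was 4.46-fold higher on the differentiated chondrocyte array than the MSC mean, while the differentiated adipocyte array was the lowest. Pfkl, the liver-type subunit, stood at 11.45, 11.45 and 11.29 on the reprogrammed arrays, 11.38, 12.08 and 10.29 on the differentiated arrays, and 11.57 and 10.65 on the MSC arrays. The osteocyte and MSC d0 arrays were its lowest. Pfkm, the muscle-type subunit, ranged only between 9.33 and 10.14.

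Aldolase A (Aldoa), which splits fructose bisphosphate, had log2 levels of 12.36, 11.94 and 12.48 on the reprogrammed arrays, 12.26, 11.52 and 10.50 on the differentiated arrays, and 12.21 and 10.56 on the MSC arrays. It was low on the osteocyte and MSC d0 arrays, but not on the adipocyte array, where most second-stage enzymes were low. The reprogrammed osteocyte array exceeded the differentiated osteocyte array 3.91-fold. Triosephosphate isomerase (Tpi1), which closes the first stage, had 13.52, 13.29 and 13.06 on the reprogrammed arrays, 12.12, 14.30 and 12.75 on the differentiated arrays, and 13.44 and 12.52 on the MSC arrays. The adipocyte, osteocyte and MSC d0 arrays were its lowest, with a gap of 0.31 to the next array.

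Of the 5 second-stage enzymes tested, Gapdh, Pgk1, Pgam1 and Pkm were lowest on those same 3 arrays, and Eno2 was not. Phosphoglycerate kinase 1 (Pgk1), which regains the first ATP, had log2 levels of 13.66, 13.33 and 13.25 on the reprogrammed arrays, 11.69, 13.33 and 12.04 on the differentiated arrays, and 13.31 and 11.83 on the MSC arrays. Its adipocyte, osteocyte and MSC d0 arrays lay 1.22 or more below every other array.

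Phosphoglycerate mutase 1 (Pgam1) followed the same order, with log2 levels of 10.42, 10.13 and 10.93 on the reprogrammed arrays, 9.14, 10.20 and 8.68 on the differentiated arrays, and 10.49 and 8.38 on the MSC arrays. Pyruvate kinase (Pkm), which makes pyruvate, had 13.85, 13.47 and 13.66 on the reprogrammed arrays, 12.41, 14.11 and 12.34 on the differentiated arrays, and 13.66 and 12.48 on the MSC arrays. The gap between the 5 higher and the 3 lower arrays was 0.99 for each of them. Gapdh, often used as a reference gene, ranged from 12.69 to 13.85, and its lowest 3 arrays were again the differentiated adipocyte (12.69), MSC d0 (12.89) and differentiated osteocyte (12.97) arrays.

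Enolase 2 (Eno2), the neuronal enolase, broke this order. Its log2 levels were 7.29, 8.51 and 8.16 on the reprogrammed arrays, 5.83, 10.12 and 9.40 on the differentiated arrays, and 7.74 and 9.0 on the MSC arrays. MSC d0 lay above MSC p4 here, the differentiated chondrocyte array was 3.25-fold over the MSC mean, and the adipocyte array, under the level, was at least 4.35-fold lower. Eno1, the main enolase of most tissues, was not analysed here for want of a probe under that name.

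Lactate dehydrogenase A (Ldha), which makes lactate from pyruvate, had log2 levels of 13.64, 13.24 and 13.30 on the reprogrammed arrays, 11.86, 13.25 and 11.51 on the differentiated arrays, and 13.47 and 11.82 on the MSC arrays. Its 5 higher arrays lay between 13.24 and 13.64 and its 3 lower ones between 11.51 and 11.86, with a gap of 1.38 between them, the widest of the 10 members that kept this order. Pyruvate dehydrogenase kinase 1 (Pdk1), which holds pyruvate back from mitochondria, had 8.99, 8.34 and 8.33 on the reprogrammed arrays, 7.01, 8.50 and 5.70 on the differentiated arrays, and 8.60 and 7.37 on the MSC arrays. Its differentiated osteocyte array, under the level, was at least 3.38-fold below the MSC mean. Pdk3 had 9.50, 9.23 and 9.63 on the reprogrammed arrays, 7.41, 9.29 and 8.40 on the differentiated arrays, and 9.41 and 8.70 on the MSC arrays, with a gap of 0.53 between its higher and lower arrays. Ldhb, Slc16a1 and Slc16a3, which encode the other main lactate dehydrogenase subunit and the lactate carriers MCT1 and MCT4, were under the level on all 8 arrays.

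**Figure D3:**
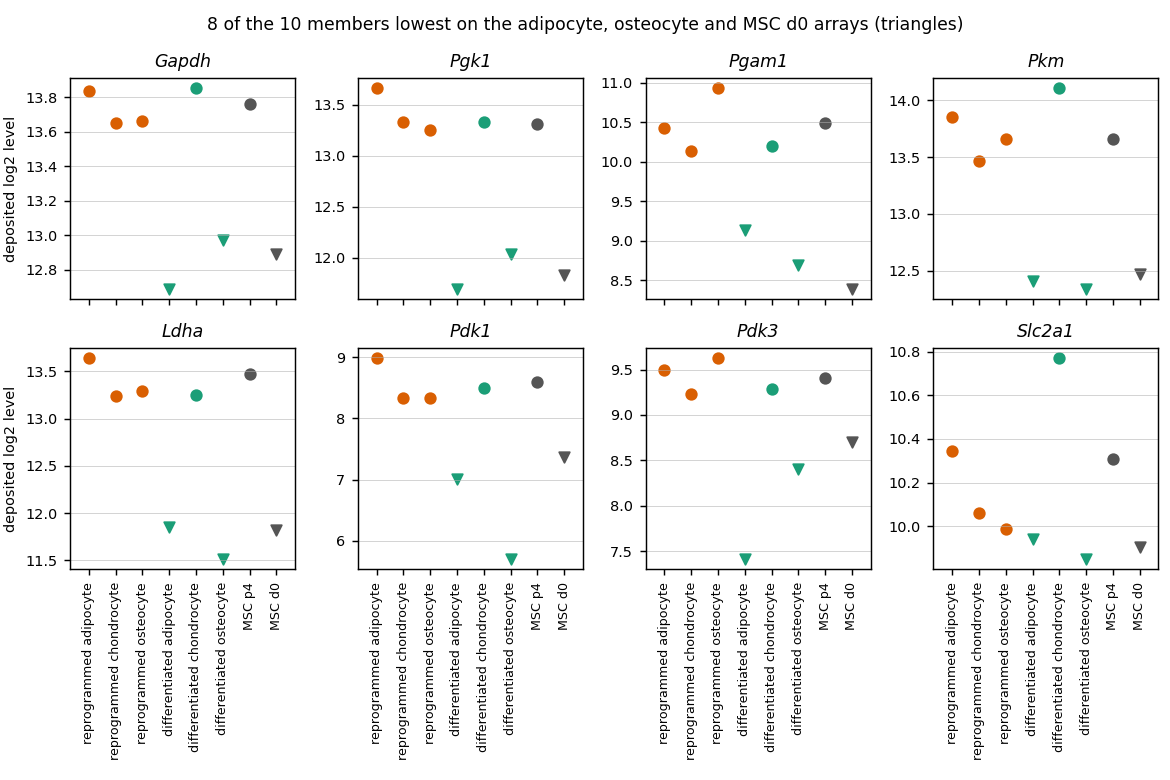
Deposited log2 level on each of 8 arrays (orange, reprogrammed; green, differentiated; grey, MSC) for 8 members, with triangles for the differentiated adipocyte, differentiated osteocyte and MSC d0 arrays. The triangles lie below every circle in each panel, with the widest gap for Ldha (1.38) and the narrowest for Slc2a1 (0.05).

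The order also set the MSC arrays apart from each other, although both carry the same cell type label. On MSC p4, 8 members were higher than on MSC d0 (Pgam1, Ldha, Aldoa, Pgk1, Ndrg1, Egln3, Pkm and Pdk1), 27.6% of those tested beside 6.63% of all genes, and Eno2 and Stc1 were lower, beside 8.17%. Pgam1 differed most among the enzymes, 4.17-fold, and Ldha 3.14-fold. Egln3 was under the level on MSC d0 (4.60, beside 6.27 on MSC p4), so that its 2-fold size there is not a measured one. Its second probe was under the level on both MSC arrays and went the other way (0.0 on MSC p4, 3.48 on MSC d0). For Ndrg1 the second probe gave 7.10 on MSC p4 and 6.52 on MSC d0, less than 2-fold. With an offset of 64 the count was 6, without Pdk1 and Egln3. In the differentiated adipocyte array, against both MSC arrays, Egln3, Higd1a and Bnip3 (by its bound at least 1.15-fold) were higher (8.2% of all genes). Eno2, Stc1, Adm, Hk1 and Pdk3 were lower there (11.0%). In the differentiated osteocyte array, Stc2 and Ddit4 were higher (4.04%) and Pdk1 and Vegfa lower (2.59%).

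Cell cycle markers varied along a similar line, with one exception. The summed linear level of 6 such genes (Top2a, Cdk1, Mcm2, Pcna, Bub1b and Kif11) was 5907 to 9849 on the reprogrammed arrays, 1084 to 2364 on the differentiated arrays, and 8418 and 3303 on MSC p4 and MSC d0. The differentiated chondrocyte array, with Ldha and Pkm as high as on the reprogrammed arrays, had a sum of 2364. All 6 genes were at the level on the reprogrammed and MSC arrays, 5 on the differentiated chondrocyte and osteocyte arrays and 3 on the differentiated adipocyte array. Their part in the levels of the glycolytic genes was not tested.

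Reprogrammed and differentiated arrays of each lineage differed accordingly. Reprogrammed adipocytes exceeded differentiated adipocytes for 12 members (17.4% of all genes), among them Pdk3 (3.98-fold), Pgk1 (3.92-fold), Pdk1 (3.61-fold), Ldha (3.44-fold) and Hk1 (3.24-fold), and lay below them for 4, Egln3, Higd1a, Ddit4 and Bnip3l (15.7%). Reprogrammed osteocytes exceeded differentiated osteocytes for 7 members, Pdk1, Pgam1, Aldoa, Ldha, Pkm, Pgk1 and Pdk3 (8.05%), and lay below them for 5, Stc2, Eno2, Ddit4, Pfkfb4 and Ndrg1 (10.8%). In chondrocytes the direction was the other one: 11 members were lower in reprogrammed than in differentiated cells (9.3%), with Egln3 (13.2-fold), Pfkp (5.14-fold) and Ankrd37 (at least 4.88-fold) in front, and 1 was higher, Adm (8.93%). These pairs of arrays also differ in title letter, so that state and title letter cannot be told apart in them.

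Few genes of any kind passed 2-fold between a reprogrammed array and both MSC arrays. Reprogrammed adipocytes had 0 members higher (0.132% of all genes) and Stc1 lower (0.939%), reprogrammed chondrocytes 0 higher (0.12%) and 0 lower (0.012%), and reprogrammed osteocytes 0 higher (0.746%) and Pfkfb4 lower (0.469%). Against MSC p4 alone, which shares their title letter, Ndrg1 was lower by its main probe on all 3 reprogrammed arrays, 2.90-fold, 2.32-fold and 2.34-fold. Its second probe gave 5.93, 6.33 and 6.85 on the reprogrammed arrays, beside 7.10 on MSC p4. The direction held by that probe, but the 2-fold size did not on the reprogrammed chondrocyte and osteocyte arrays. By main probes, reprogrammed adipocytes had 0 members higher (0.181%) and Stc1 and Ndrg1 lower (1.4%) than on MSC p4. Reprogrammed chondrocytes had 0 higher (1.53%) and Ndrg1 lower (0.409%). Reprogrammed osteocytes had Ddit4 (2.16-fold) and Stc2 (at least 1.67-fold) higher (5.43%) and Pfkfb4 (2.45-fold) and Ndrg1 lower (4.8%). Against MSC d0 some glycolytic genes stood apart and others did not. Ldha was at 13.24 to 13.64 on the reprogrammed arrays and 11.82 on MSC d0. Pgk1 was at 13.25 to 13.66 on the reprogrammed arrays and 11.83 on MSC d0. Both were over 2-fold higher on each reprogrammed array. Hk1 (8.38 to 8.89, beside 8.24) and Gapdh (13.65 to 13.83, beside 12.89) stayed under 2-fold on each. Pfkm (9.64 to 10.07, beside 10.14) and Eno2 (7.29 to 8.51, beside 9.0) were lower on each. The share of all genes was not counted for this comparison.

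**Figure D4:**
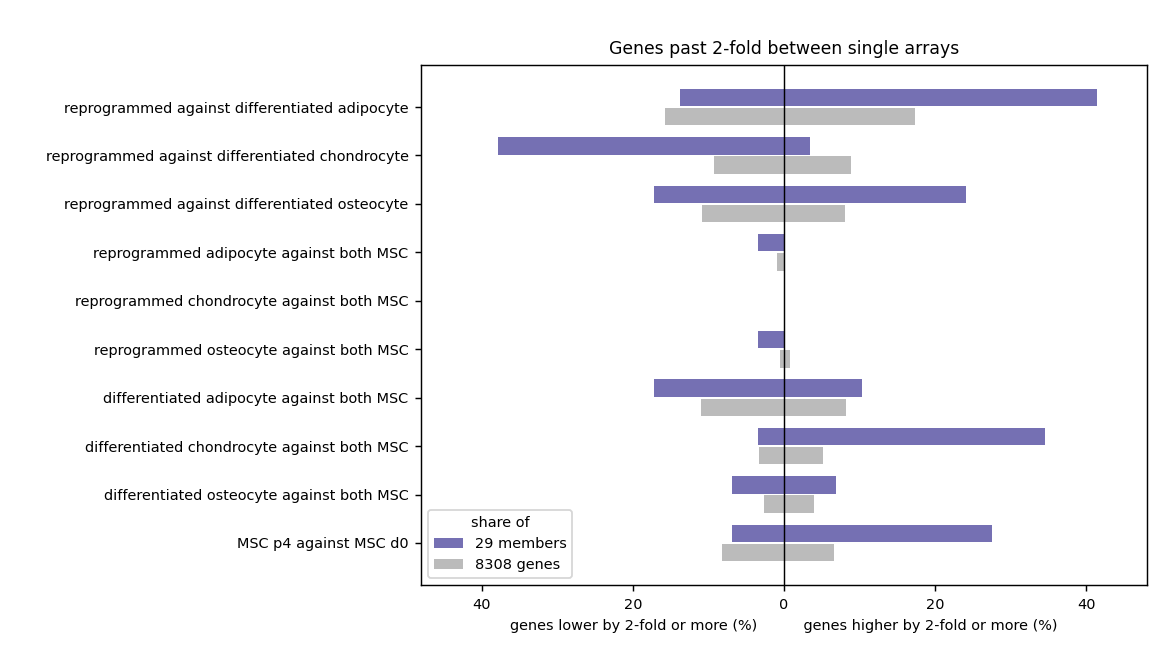
Share (%) of the 29 members (purple) and of all 8308 genes (grey) that were 2-fold or more higher (right) or lower (left) in comparisons of single arrays. Members exceed the grey bar on the right for reprogrammed against differentiated adipocytes (41.4% beside 17.4%), for the differentiated chondrocyte array against both MSC arrays (34.5% beside 5.2%) and for MSC p4 against MSC d0 (27.6% beside 6.63%), and on the left for reprogrammed against differentiated chondrocytes (37.9% beside 9.3%).

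Of the regulators of fructose 2,6-bisphosphate, only Pfkfb4 was tested, and it was highest on the differentiated chondrocyte array. Pfkfb4, a bifunctional enzyme that sets the level of this phosphofructokinase activator, had log2 levels of 7.72, 7.40 and 6.38 on the reprogrammed arrays, 6.77, 9.31 and 7.64 on the differentiated arrays, and 7.83 and 7.58 on the MSC arrays. The differentiated chondrocyte array exceeded the MSC mean 2.90-fold and the reprogrammed osteocyte array lay 2.26-fold below it. Pfkfb3, its relative, was under the level on all 8 arrays.

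Of the oxygen-sensing genes, Egln3 (the hydroxylase PHD3, itself a HIF target) had log2 levels of 6.59, 6.07 and 5.62 on the reprogrammed arrays, 8.27, 10.08 and 5.82 on the differentiated arrays, and 6.27 and 4.60 on the MSC arrays. The differentiated chondrocyte array was 17.9-fold above the MSC mean and the adipocyte array 5.30-fold, and all others were near or under the level. MSC d0 was under the level, so that these folds are not measured sizes. The second probe of Egln3 had 1.97 on the differentiated adipocyte array, under the level. The high value on that array thus rests on 1 probe. Egln1 (PHD2) ranged from 6.39 to 7.95 and was likewise highest on the differentiated chondrocyte array. Hif1a, the alpha subunit itself, moved the other way and little: it ranged from 7.28 to 8.61, and its lowest 3 arrays were the differentiated ones. HIF is regulated chiefly at the protein level, which these arrays do not measure. Epas1, the HIF-2 alpha subunit, was under the level everywhere, with its highest value, 5.31, on the differentiated osteocyte array.

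Among hypoxia-induced genes, Ankrd37, a HIF target that encodes an ankyrin repeat protein, had log2 levels of 6.46, 5.94 and 5.50 on the reprogrammed arrays, 6.02, 8.55 and 5.28 on the differentiated arrays, and 5.66 and 5.12 on the MSC arrays. With both MSC arrays under the level, the differentiated chondrocyte array was at least 4.88-fold higher. Higd1a, a mitochondrial protein of the respiratory chain, had 8.01, 7.98 and 7.37 on the reprogrammed arrays, 9.26, 9.06 and 7.55 on the differentiated arrays, and 7.55 and 7.30 on the MSC arrays. It was high in differentiated adipocytes and chondrocytes alike, 3.34-fold and 2.92-fold over the MSC mean, and Bnip3, which marks mitochondria for removal, shared that: it ranged from 4.04 to 6.32 and reached the level only on those arrays, just above it, so that the chondrocyte array was at least 1.20-fold above the MSC arrays. Bnip3l, its relative, ranged from 10.84 to 12.05 with the same arrays highest.

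Ddit4 had log2 levels of 9.77, 10.38 and 10.74 on the reprogrammed arrays, 10.95, 11.95 and 11.94 on the differentiated arrays, and 9.61 and 10.53 on the MSC arrays. All 3 differentiated arrays lay above the other 5. Stanniocalcin-2 (Stc2), a secreted inhibitor of IGF release, had 6.18, 6.24 and 6.88 on the reprogrammed arrays, 5.91, 8.34 and 9.83 on the differentiated arrays, and 5.60 and 6.60 on the MSC arrays. It peaked on the differentiated osteocyte array, 10.9-fold over the MSC mean, while the adipocyte array resembled MSCs. Ndrg1, a stress-responsive gene, ranged from 6.64 to 8.33 and was highest on MSC p4 by its main probe, but its other probe at the level was highest on the differentiated osteocyte array, at 7.71, against 7.10 on MSC p4.

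The secreted vascular factors did not follow the chondrocyte pattern. Adm had log2 levels of 9.81, 9.61 and 10.04 on the reprogrammed arrays, 8.40, 8.21 and 9.72 on the differentiated arrays, and 9.93 and 10.69 on the MSC arrays, and was thus lowest on the differentiated chondrocyte array, 4.10-fold below the MSC mean. Stc1 had 4.40, 6.81 and 7.60 on the reprogrammed arrays, 5.80, 7.19 and 7.14 on the differentiated arrays, and 7.72 and 8.92 on the MSC arrays. Both adipocyte arrays were the lowest for it, at least 4.20-fold below the MSC mean in each. Vegfa, the main vessel growth factor, ranged from 10.20 to 11.66, and the differentiated osteocyte array was the lowest. The carbonic anhydrases Car9 and Car12, which handle acid, were under the level, except Car12 at 6.13 on the differentiated chondrocyte array. Aldoc, an aldolase of brain, was under the level on every array.

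**Figure D5:**
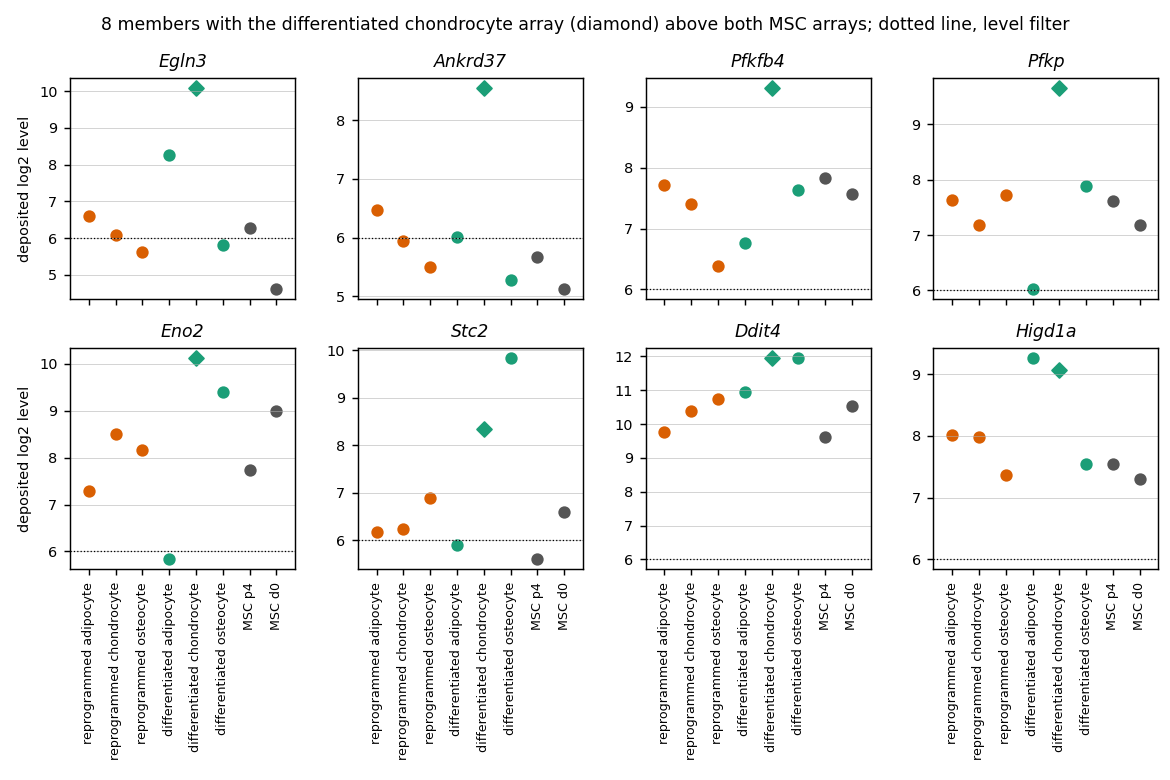
Deposited log2 level on each of 8 arrays (orange, reprogrammed; green, differentiated; grey, MSC) for 8 of the 10 members higher on the differentiated chondrocyte array (diamond) than on both MSC arrays, with a dotted line at the level of 6. Egln3 stands at 10.08 there, against 6.27 and 4.60 on MSC p4 and MSC d0, and in Stc2 and Higd1a another differentiated array is higher still.

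The differentiated chondrocyte array was the highest of 8 for 15 of 29 members, beside 16.5% of all genes. Set against MSC d0 alone, which shares its title letter, it was higher for 17 members (7.78% of all genes). Set against MSC p4 alone, it was higher for 11 (11.0%). Tpi1, Pgam1, Pkm, Pgk1, Pfkl, Ldha and Pdk1 passed 2-fold against MSC d0 and not against MSC p4, and Bnip3l the other way. Against both other differentiated arrays it was higher for 10, namely Egln3, Ankrd37, Pfkp, Pfkfb4, Pdk1, Tpi1, Pkm, Ldha, Pgk1 and Pgam1 (4.53%). Of 7 macrophage markers with a probe, 3 were at the level on that array, Lyz2 (8.0), Cd14 (7.59) and Fcer1g (6.45), with a summed linear level of 645.0 against 226.0 to 419.1 on the others, and Ptprc, the pan-leukocyte gene, was under the level on all 8. Endothelial markers were under the level on every array. The part of the osteoblast and macrophage markers in these levels was not tested.

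Further probes followed the main one for some members and not for others. For Pgam1 the other probe at the level had 10.65, 10.36 and 9.53 on the reprogrammed arrays, 8.56, 10.41 and 8.31 on the differentiated arrays, and 10.63 and 8.74 on the MSC arrays. The same 3 arrays were the lowest by it, as they were by the second probe of Tpi1. That probe of Tpi1, at the level on all 8 arrays, did not put the differentiated chondrocyte array highest: it had 12.41 there, beside 12.55 on the reprogrammed adipocyte and 12.46 on the MSC p4 array. With the mean of each gene's probes, 9 of the 11 members lower in reprogrammed than in differentiated chondrocytes stayed so, without Tpi1 and Egln1. The second probes of Egln3, Pfkp and Egln1 were highest on the differentiated chondrocyte array, at 6.02, 6.29 and 7.39. Each has a further probe, under the level on every array, and of these Egln3's was lowest on that array (0.55) and Egln1's highest on the reprogrammed osteocyte array (5.85, beside 5.74). For Hk1, Pkm and Pfkfb4 the second probes gave 5.38, 4.79 and 3.39 there, under the level, so that the high values of those genes on that array rest on 1 probe each. The mouse genome holds many processed copies of Gapdh, Ldha, Pgk1, Pgam1 and Tpi1, and whether their transcripts add to these probes was not tested.

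Because the members of both patterns include known HIF targets, their promoters are shown for the HIF core, spelled ACGTG or GCGTG and searched on both strands, with matches that overlap counted as 1. RefSeq windows of GRCm38.p6 were matched by symbol for 36 members, and the 250 bases before each gene start were searched. Of 50 such windows of members 40 (80.0%) held a core, beside 12679 of 32851 windows of all genes (38.6%). The members' windows were also richer in G and C, at 61.1% against 53.2%. Counted by gene, at least 1 window held a core for 32 of 36 members (88.9%), beside 41.5% of all genes. That was so for 9 of the 10 members high on the differentiated chondrocyte array, the exception being Eno2. It was also so for 9 of the 10 with the 5-against-3 order, the exception being Tpi1. Both counts are near the share of the members in general. These matches are descriptions of letters and not of binding.

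Stretches of 100 bases are printed for 5 members of the chondrocyte pattern and 4 of the other, each 5′ to 3′ on the gene's strand, in lower case with the cores in capitals. They lie at chr12:54204004-54204103 (minus strand, Egln3), chr8:45999992-46000091 (minus, Ankrd37), chr9:108991785-108991884 (plus, Pfkfb4), chr13:6648772-6648871 (minus, Pfkp), chr7:138909524-138909623 (minus, Bnip3), chr7:46845704-46845803 (plus, Ldha), chrX:106186950-106187049 (plus, Pgk1), chr19:41911696-41911795 (plus, Pgam1) and chrX:93832155-93832254 (minus, Pdk3).
Egln3: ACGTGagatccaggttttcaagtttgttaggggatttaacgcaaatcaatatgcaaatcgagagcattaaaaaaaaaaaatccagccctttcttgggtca
Ankrd37: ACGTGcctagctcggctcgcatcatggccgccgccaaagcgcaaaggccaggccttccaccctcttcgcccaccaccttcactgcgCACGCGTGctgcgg
Pfkfb4: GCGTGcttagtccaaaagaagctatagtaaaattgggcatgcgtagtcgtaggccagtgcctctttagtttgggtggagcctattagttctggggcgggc
Pfkp: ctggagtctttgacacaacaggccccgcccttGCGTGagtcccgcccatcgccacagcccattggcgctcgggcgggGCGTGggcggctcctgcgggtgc
Bnip3: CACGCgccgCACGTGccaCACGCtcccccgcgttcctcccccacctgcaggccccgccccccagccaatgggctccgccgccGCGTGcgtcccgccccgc
Ldha: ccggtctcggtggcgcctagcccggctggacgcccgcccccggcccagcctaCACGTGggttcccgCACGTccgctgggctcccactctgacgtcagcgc
Pgk1: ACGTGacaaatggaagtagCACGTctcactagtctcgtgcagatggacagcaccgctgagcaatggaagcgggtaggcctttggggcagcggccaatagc
Pgam1: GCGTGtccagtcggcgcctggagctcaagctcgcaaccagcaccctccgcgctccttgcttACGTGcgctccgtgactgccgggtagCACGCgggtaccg
Pdk3: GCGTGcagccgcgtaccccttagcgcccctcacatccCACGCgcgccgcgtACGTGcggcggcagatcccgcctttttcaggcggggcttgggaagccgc
Bnip3 held 4 cores in this stretch and Pdk3 and Pgam1 held 3 each, while Egln3 and Pfkfb4 held 1 each. The printed core nearest to a gene start began 23 bases before it, in Pfkp, and the single core of Egln3 began 229 bases before it. In Ldha and Bnip3 a core read CACGTG, the same on both strands.

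Genes of the pathway beyond the members were followed in lists of 51 other glycolysis, pentose phosphate, glycogen and pyruvate genes and 50 other HIF pathway and hypoxia-induced genes, of which 23 and 37 were tested. limma called 0 of them in any contrast between states. Unadjusted, 0 of the 23 glycolysis genes were higher and 3 lower in reprogrammed than in differentiated cells, and 3 of the 37 hypoxia genes were higher and 5 lower, beside 10.9% higher and 11.7% lower of all genes. Between differentiated cells and MSCs, 1 of 23 was higher and 0 lower, and 3 of 37 were higher and 1 lower, beside 4.63% and 5.74%. Reprogrammed cells and MSCs gave 0 of 23 and 0 of 37 at that threshold, beside 0.12% higher and 0.205% lower. The genes lower in reprogrammed than in differentiated cells include Pcx and Igfbp3, and those higher in differentiated cells than in MSCs include Igfbp3. Both passed the filter only through differentiated arrays, and their unadjusted p rests on values under the level. The order of 3 arrays below the other 5 held for 0 of the 23 other glycolysis genes and for 4 of the 37 hypoxia genes, namely P4ha1, Fam162a, Mif and Maff, beside 4.51% of all genes. Fam162a, a hypoxia-induced mitochondrial gene, had log2 levels of 12.78, 12.30 and 12.14 on the reprogrammed arrays, 10.77, 12.01 and 10.78 on the differentiated arrays, and 12.32 and 11.19 on the MSC arrays.

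The largest differences among those listed genes between reprogrammed and differentiated cells were lower ones. Pyruvate carboxylase (Pcx) differed by a log2 of -2.41 ± 0.94 (SE), and the growth factor binder Igfbp3 by -2.12 ± 0.75. Txnip, which curbs glucose uptake, differed by -2.02 ± 0.59, and the nuclear receptor Rora by -1.54 ± 0.61. Pcx and Igfbp3 were under the level on every reprogrammed array, and they passed the filter only through differentiated arrays. The sizes of their differences are thus not measured ones. Among differentiated arrays Pcx was high on the adipocyte array (10.37, beside 6.10 and 6.57) and Igfbp3 on the osteocyte array (8.95, beside 6.54 and 5.08). The largest positive differences were 1.24 for Nrn1, 1.21 for Fam162a, 1.19 for Maff and 1.02 for Tgfb3, with limma adjusted p values of 0.114 to 0.414 over these 8. With the title letter as a block the lower ones differed by -3.28 (Pcx), -1.63 (Igfbp3), 0.08 (Txnip) and 0.18 (Rora), and the higher ones by 0.91 (Nrn1), 0.08 (Fam162a), -0.04 (Maff) and 1.83 (Tgfb3).

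Differentiated cells exceeded MSCs most for Pcx (2.24 ± 1.05 on the log2 scale), Txnip (2.07 ± 0.66), Igfbp3 (2.05 ± 0.84) and the muscle enolase Eno3 (1.19 ± 0.61), and lay lowest against them for Nrn1 (-1.18), Maff (-0.90), Wsb1 (-0.78) and the collagen cross-linking enzyme Lox (-0.77), with limma adjusted p values of 0.357 to 0.701. Reprogrammed cells exceeded MSCs most for the ADP-dependent glucokinase Adpgk (0.71), Fam162a (0.65), Hmox1 (0.55) and Ak4 (0.53), and lay lowest for Dusp1 (-1.0), the lactate carrier chaperone Bsg (-0.52), Rora (-0.52) and Fos (-0.52), all at a limma adjusted p of 1.0. Pcx and Igfbp3 were under the level on both MSC arrays, so that the sizes of their differences from MSCs are not measured ones. Each of these contrasts shares arrays with another, and none of the differences passed the test.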

How the data were processed

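RNA of 8 samples was hybridised to Illumina arrays after biotin labelling, per the labels' protocols. The log2 values of 45281 probes are the authors' deposited values. How they were corrected for background and normalized is not given in the sources used here. After sorting, no column departed from another by more than 0.0175 above a log2 of 2. Another table, with 16 value columns whose names match no label, was not used. Probes were named through the platform annotation (34885 with 1 symbol, 18 with several, 10378 with none), of which 34807 were matched to RefSeq symbols of GRCm38.p6.

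Deposited values x were transformed to log2(2 to the power x, plus 16), which understates changes of dim genes. Each gene was represented by its probe of highest mean. limma 3.58.1 (lmFit, eBayes, R 4.3.3) fitted 3 states over 8 arrays and 8308 genes, two-sided, with Benjamini-Hochberg adjustment at 0.05. A side under the level of 6 on all its arrays has only a bound, set at 6.32 after the offset, and is given as at least N-fold. The limma step was tested on simulated data. Alternatives varied the offset, level, probe rule, centring, arrays and blocks. The number of arrays limits the precision.

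Members, gene lists, offset, level and size rule were chosen with earlier results of these data known. By rule, values on every array are given for the 20 members with the widest range, and of the related lists the 4 largest differences per direction. Motifs were searched with Python 3.11.15.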

Additional observations from a re-analysis of the deposited data

Results flagged for a closer look

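Eno2 was 2-fold or more above both MSC arrays in one cell type and below both in another. It lay a log2 of 1.0974 above the nearer MSC array on the differentiated chondrocyte array and, taken at the floor because it was under the level there, -1.5188 from the nearer one on the differentiated adipocyte array, so that it lay at least that far below. Pfkfb4 lay 1.4213 above the nearer MSC array on the differentiated chondrocyte array and -1.0567 from it on the reprogrammed osteocyte array. Each cell type had 1 array, and the difference between cell types was not tested.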

How the results depend on the processing

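Members called stayed at 0 in all 3 contrasts under every alternative except leaving out the differentiated adipocyte array. There Stc2 was called between reprogrammed and differentiated cells, beside 209 of all 8308 genes (range of members called over left-out arrays 0 to 1). Genes called between reprogrammed and differentiated cells numbered 54, but 0 with the title letter as a block, 7 with lineage as a replicate block, and 2 to 209 with 1 array left out. Between differentiated cells and MSCs 5 were called, against 2 with no offset, 10 with an offset of 64, 3 with no level filter, 12 at a level of 8, 11 after median centring, 0 with only those states, 1 with the title letter as a block and 1 to 51 with 1 array left out. The members' median difference between reprogrammed and differentiated cells (0.14) was -0.13 with no level filter, 0.43 at a level of 8, -0.45 with the title letter as a block and -0.18 to 0.48 with 1 array left out. Between differentiated cells and MSCs (0.041) it was -0.50 to 0.48 with 1 array left out. Between reprogrammed cells and MSCs (0.29) it was 0.18 with no level filter, -0.0012 with the block and -0.0012 to 0.45 with 1 array left out. The causes were not tested, save that other levels change the genes entered. Of the differences of 20 members over these alternatives, 895 moved by less than their SE, 72 by more, and 1 gained a call.

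Counts between single arrays were repeated with alternatives chosen after seeing the data. Members higher on the differentiated chondrocyte than on both MSC arrays numbered 10, and 5 at a level of 8, and members lower in reprogrammed than differentiated chondrocytes 11, and 6 at that level, which leaves 23 members. The 5-against-3 order held for 9 or 10 members throughout.

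Deviations from the state means of reprogrammed and differentiated arrays correlated over genes at 0.17 for adipocytes, 0.09 for chondrocytes and 0.23 for osteocytes, each highest for its own lineage, a hint from the data and not the design, so the pairing by lineage was kept as an alternative.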
